A study of Mus musculus with 6 samples.

Results

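Adgre1, Cd68 and Itgax encode F4/80, CD68 and CD11c, the surface and lysosomal proteins by which mouse macrophages and dendritic cells are commonly recognised. The rows of these 3 genes were taken by symbol from a table of 8191 genes, and each was found once, with a value in all 6 samples. The samples were MDSCs (myeloid-derived suppressor cells, immature myeloid cells that restrain T cells) from the spleens of aged mice. The study's RNA-seq methods name no culture or treatment between isolation and RNA extraction. The groups were WT, Tnfr1-/- and Tnfr2-/-, with 2 samples of each genotype. All mice were on the BALB/c background, the knockouts carried no other allele in the descriptions, and old mice were 18 to 24 months of age. Cells of 5 mice were pooled in each of 2 independent experiments, so each value is an average over animals. The cells were prepared with an MDSC isolation kit and their purity was checked by flow cytometry as CD45+Gr1+CD11b+, and F4/80, CD68 and CD11c were not part of that gate.

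MDSCs are held short of maturity, and under permissive conditions they give rise to macrophages and dendritic cells. F4/80 is an adhesion G protein-coupled receptor that is prominent on red pulp macrophages of the spleen. CD68 is a heavily glycosylated protein of late endosomes and lysosomes in phagocytes, related to the LAMP family. CD11c is the integrin αX subunit, which pairs with the β2 subunit CD18 (Itgb2) to form a complement receptor on dendritic cells and on some macrophages. TNFR1 and TNFR2 are the pair of receptors for TNF-α, encoded by Tnfrsf1a and Tnfrsf1b. The comparisons ask how the mRNA of these maturation markers stood in MDSCs that lacked one receptor or the other.

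In the GENCODE M21 annotation of GRCm38, Adgre1 lies on the plus strand of chromosome 17 at chr17:57358691-57483527, Cd68 on the minus strand at chr11:69664213-69666153 and Itgax on the plus strand at chr7:128129547-128150657. All 3 are protein-coding genes, and no other annotated gene overlaps them. Cd68 is the shortest, with 1257 exonic bases, compared with 3238 for Adgre1 and 4803 for Itgax. Reads had 50 bases, and none of the 3378 and 1296 windows of that length in Adgre1 and Cd68 occurred exactly in an annotated transcript of another gene. Near matches and the rest of the genome were not searched. For Itgax, 384 of 4790 windows (8.02%) also occurred in its neighbour Itgad, the αD integrin subunit gene, which starts 3719 bases downstream. Itgad was itself lower in the knockouts, at 46.0 and 52.6 FPKM in WT, 12.1 and 14.1 FPKM in Tnfr1-/-, and 11.3 and 6.80 FPKM in Tnfr2-/- samples. The part of shared reads in the Itgax values was not tested.

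The promoters of the members are shown as a description. Cd68 and Itgax were both lower in each knockout than in WT, as were most genes, and shared control was not tested. RefSeq's promoter table for GRCm38.p6 held 2 of the 3 members, and the 250 bases before each start are printed 5′ to 3′ on the gene's strand. Capitals mark matches, on either strand, to GAGGAA (a purine box of the kind bound by PU.1, the macrophage lineage factor), TGANTCA (an AP-1 site, bound by Fos and Jun proteins), CACGTG (an E-box of lysosomal gene regulators) or TGTGGT (a RUNX site). The Cd68 sequence is chr11:69666171-69666420 on the minus strand and the Itgax sequence is chr7:128129300-128129549 on the plus strand.
Cd68: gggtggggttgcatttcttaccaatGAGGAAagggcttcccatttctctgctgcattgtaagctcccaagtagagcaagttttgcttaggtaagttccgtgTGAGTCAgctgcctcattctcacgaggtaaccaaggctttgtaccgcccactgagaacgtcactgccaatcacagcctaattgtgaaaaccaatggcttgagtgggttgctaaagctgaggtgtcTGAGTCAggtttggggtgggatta
Itgax: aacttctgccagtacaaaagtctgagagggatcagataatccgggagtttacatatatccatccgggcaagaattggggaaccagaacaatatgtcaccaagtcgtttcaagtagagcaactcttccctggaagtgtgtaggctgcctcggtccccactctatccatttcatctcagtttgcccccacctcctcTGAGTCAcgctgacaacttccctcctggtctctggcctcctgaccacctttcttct

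Both promoters held the AP-1 letters, which began 149 and 24 bases before the start in Cd68 and 56 bases before it in Itgax. The Cd68 promoter also held GAGGAA once, 225 bases before the start. No match to GAGGAA was in the Itgax window, and neither window held CACGTG or TGTGGT. Over 27025 promoters of the same length, TGANTCA was present in 6.87%, GAGGAA in 23.1%, CACGTG in 6.05% and TGTGGT in 14.2%. A match describes the letters only, and no binding was measured here.

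Before the levels are compared, the WT libraries need a separate description, because they stood apart from those of both knockouts. The 8191 genes summed to 344714 and 346870 FPKM (fragment counts scaled to transcript length and to the size of the library) in WT but to between 133604 and 155248 FPKM in the 4 knockout samples. Deposited WT values carried as many as 10 digits, against at most 6 in the knockouts. Among genes under 0.1 FPKM in both samples of a genotype, the ratio between the samples took its commonest value in 37.6% of 255 genes in WT, compared with 5.58% of 412 in Tnfr1-/- and 6.77% of 399 in Tnfr2-/-. Ly6c1, a gene for the Ly6C part of the Gr-1 epitope of the gate, was nearly absent in WT, at 0.159 and 0.0638 FPKM, compared with 95.8 and 99.6 FPKM in Tnfr1-/- and 121 and 178 FPKM in Tnfr2-/- samples. Ptprc, which encodes CD45, was present throughout, at 98.2 and 105 FPKM in WT, 229 and 271 FPKM in Tnfr1-/- and 267 and 237 FPKM in Tnfr2-/-. Itgam, Ly6g, Ly6c2, Cd86 and Tnfrsf1a were not analysed here. The targeted gene Tnfrsf1b was lowest where it was deleted, at 11.3 and 14.3 FPKM in Tnfr2-/-, compared with 111.8 and 114.9 FPKM in WT and 47.8 and 69.6 FPKM in Tnfr1-/-. These features of the WT libraries follow the genotype, so the way the values were made, the make-up of the isolated cells and the genotype cannot be told apart in a comparison with WT. How many reads stand behind a value is not known.

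The 3 markers were abundant in aged WT MDSCs and far lower in both knockouts. Cd68 was the highest of them in every sample, on the FPKM scale, which accounts for transcript length. In WT it reached 682 and 701 FPKM, or 692 ± 13.4 FPKM (SD, n = 2), and stood 55th and 54th from the top of the 8191 genes. In Tnfr1-/- samples it was at 44.4 and 50.2 FPKM (47.3 ± 4.12, SD, n = 2), and in Tnfr2-/- samples at 86.6 and 101 FPKM (93.8 ± 10.2, SD, n = 2). The 3 genotypes did not overlap, and Tnfr2-/- lay between Tnfr1-/- and WT. The table held only genes that differed between the genotypes in these samples, so some separation was built in. How many of all genes did not overlap was not counted.

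Itgax was the second of the 3 in WT, at 218.9 and 215.7 FPKM, or 217 ± 2.27 FPKM (SD, n = 2). It was at 12.5 and 12.6 FPKM in Tnfr1-/- (12.5 ± 0.0901, SD, n = 2) and at 13.3 and 17.1 FPKM in Tnfr2-/- (15.2 ± 2.70, SD, n = 2). The knockout samples lay close together, and the step from the higher Tnfr1-/- to the lower Tnfr2-/- sample was smaller than the gap between the Tnfr2-/- samples.

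Adgre1 was at 95.9 and 109 FPKM in WT (102 ± 9.14, SD, n = 2), at 12.2 and 13.4 FPKM in Tnfr1-/- (12.8 ± 0.831, SD, n = 2) and at 20.6 and 20.4 FPKM in Tnfr2-/- (20.5 ± 0.151, SD, n = 2). The genotypes did not overlap, under the same limit as for Cd68, and stood in the same order. The order of the markers within a genotype changed: Itgax exceeded Adgre1 in both WT samples, lay at about its level in both Tnfr1-/- samples, and was below it in both Tnfr2-/- samples.

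The place of each marker among the listed genes of its own sample does not depend on the scale of the library. Adgre1 was above 94.0% and 94.9% of the genes in WT, above 74.1% and 76.5% in Tnfr1-/- and above 83.1% and 81.8% in Tnfr2-/-. For Cd68 these shares were 99.3% and 99.4% in WT, 93.8% and 94.6% in Tnfr1-/-, and 96.7% and 97.2% in Tnfr2-/-. Itgax dropped the most places, from above 97.6% in both WT samples to above 74.5% and 75.0% in Tnfr1-/- and above 75.0% and 78.5% in Tnfr2-/-. Even in the knockouts, then, all 3 markers stayed above 74.1% of the table.

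**Figure D1:**
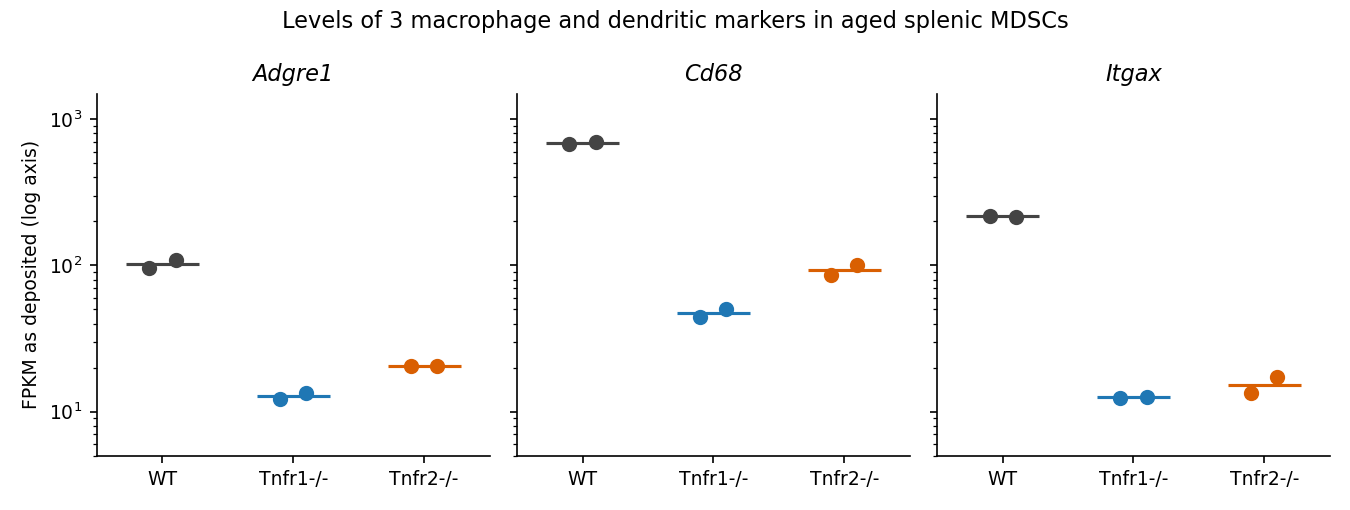
Deposited FPKM of Adgre1, Cd68 and Itgax on a log axis, with 1 point per sample and a line at the mean of the 2 samples of each genotype (WT grey, Tnfr1-/- blue, Tnfr2-/- orange). WT points lie far above both knockouts in all 3 panels, and Tnfr2-/- points lie above Tnfr1-/- clearly for Cd68 and Adgre1 and narrowly for Itgax.

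The differences were tested with limma on log2(FPKM + 1) in 1 model of the 6 samples, with Benjamini-Hochberg adjustment over all 8191 genes. A gene was called when its adjusted p was under 0.05 and its fold change over 1.5. Fold changes are on the log2(FPKM + 1) scale. The authors had kept in the table only genes that differed between genotypes by analysis of variance, at a p under 0.05 when recomputed, so every gene tested, members included, had already been selected on these samples. The p-values measure the spread between 2 pooled samples of each genotype. In bulk RNA, fewer cells of a type and less RNA per cell cannot be told apart.

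In aged Tnfr2-/- MDSCs compared with WT, all 3 markers were called lower, as were 57.1% of all genes tested, with a further 13.6% called higher. Itgax fell by 3.76 on the log2 scale (SE 0.12, 95% interval -4.08 to -3.44), a 13.6-fold lower level, with a limma adjusted p of 2.123e-05. Cd68 fell by 2.87 (SE 0.12, 95% interval -3.18 to -2.57), or 7.33-fold, with a limma adjusted p of 3.973e-05. Adgre1 fell by 2.26 (SE 0.09, 95% interval -2.50 to -2.03), or 4.80-fold, with a limma adjusted p of 3.805e-05. A call in this direction was thus the usual outcome in this table, and the median gene itself was lower by -0.74 on the log2 scale. Relative to that median gene, the differences were -3.03 for Itgax, -2.14 for Cd68 and -1.53 for Adgre1.

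In aged Tnfr1-/- MDSCs compared with the same WT samples, all 3 were also called lower, as were 60.7% of all genes, with 14.1% called higher. The log2 differences were -4.01 for Itgax (SE 0.12, 16.1-fold lower, limma adjusted p 1.756e-05), -3.85 for Cd68 (SE 0.12, 14.4-fold lower, limma adjusted p 1.715e-05) and -2.90 for Adgre1 (SE 0.09, 7.48-fold lower, limma adjusted p 1.812e-05). Relative to the median gene, which was lower by -0.83, they were -3.19, -3.02 and -2.08. Both comparisons rest on the same pair of WT samples and are not independent of each other.

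Since most genes were lower in the knockouts, the samples were also put on a common scale by median-ratio size factors, which brought the median gene to -0.03 in both comparisons and left 21% of genes called lower in Tnfr2-/- and 22.1% in Tnfr1-/-. The members were smaller in their differences but still called. In Tnfr2-/- compared with WT the log2 differences became -1.29 for Adgre1, -1.88 for Cd68 and -2.79 for Itgax, with limma adjusted p-values of 0.0004316, 0.0001353 and 3.224e-05. In Tnfr1-/- they became -1.80, -2.71 and -2.90. The fall therefore exceeded that of the median gene in both knockouts under either scale, and Itgax fell the furthest, although in Tnfr1-/- its interval (-4.33 to -3.69 with FPKM as deposited) overlapped that of Cd68 (-4.15 to -3.54).

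**Figure D2:**
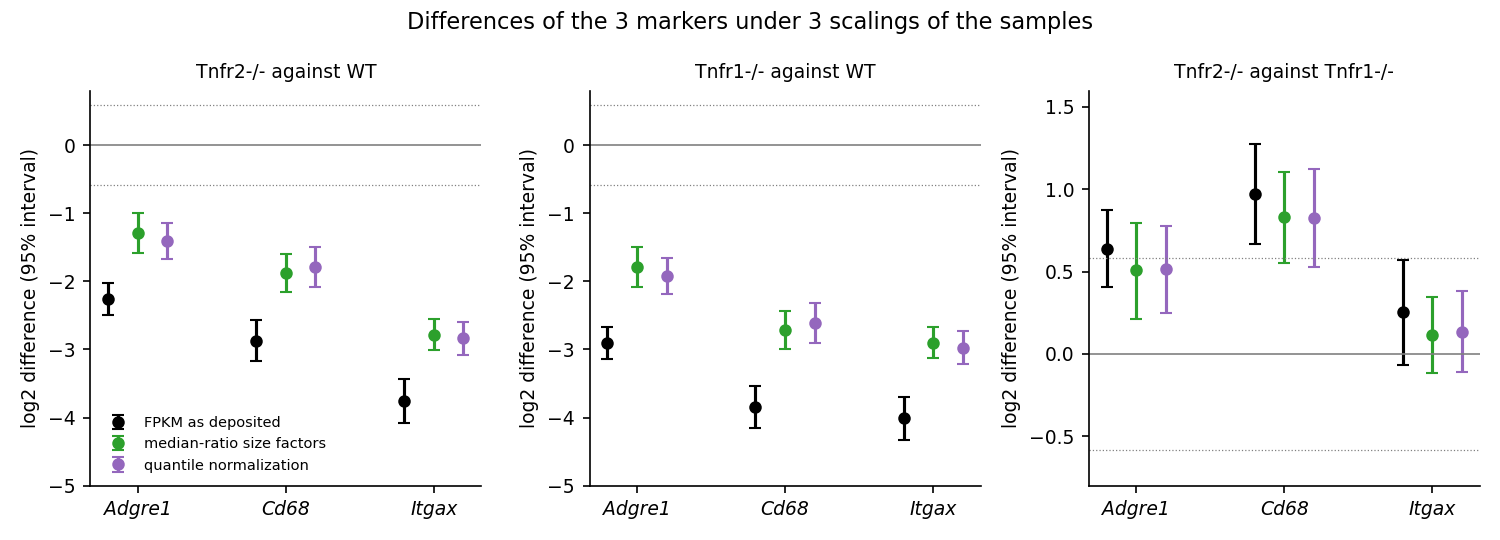
Log2 differences of the 3 markers with 95% intervals from limma for each pair of genotypes, for FPKM as deposited (black), median-ratio size factors (green) and quantile normalization (purple). The grey line marks no difference and the dotted lines the fold change of 1.5. Intervals against WT lie below the lower dotted line under all 3 scalings, while those of Tnfr2-/- against Tnfr1-/- lie above 0 for Adgre1 and Cd68 and reach across it for Itgax.

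Between the knockouts, Cd68 and Adgre1 were modestly higher in aged Tnfr2-/- than in aged Tnfr1-/- MDSCs, against 0.842% of all genes called higher and 0.61% called lower. Cd68 rose by 0.97 on the log2 scale (SE 0.12, 95% interval 0.67 to 1.27), or 1.96-fold, with a limma adjusted p of 0.03776. Adgre1 rose by 0.64 (SE 0.09, 95% interval 0.41 to 0.87), or 1.56-fold, with a limma adjusted p of 0.04211. Itgax differed by 0.25 (SE 0.12, 95% interval -0.07 to 0.57), or 1.19-fold, with a limma adjusted p of 0.2934, and the interval leaves room for a rise of up to 0.57 on the log2 scale. No WT level enters these differences, and the sums of the libraries were close, although the WT samples contributed to the estimate of the spread.

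Both calls lay near the threshold and depended on the model and on which samples entered it. With all samples kept, a model of only the 2 knockouts gave a limma adjusted p of 0.1604 for both, the replicate number as a block gave 0.06144 for Cd68 and 0.07809 for Adgre1, and untrended eBayes gave 0.05139 and 0.06031. Leaving out WT replicate 1 gave an adjusted p of 0.1442 for each of the markers Cd68 and Adgre1, and leaving out WT replicate 2 gave 0.1447 for each. Without Tnfr1-/- replicate 1 the adjusted p was 0.1393 for Cd68 and 0.1586 for Adgre1, and without Tnfr1-/- replicate 2 it was 0.1345 and 0.1498. Without Tnfr2-/- replicate 2 it was 0.07236 for Cd68 and 0.09391 for Adgre1, whereas without Tnfr2-/- replicate 1 both remained called, at 0.0265 and 0.04087. The differences themselves stayed within 0.86 and 1.08 for Cd68 and within 0.58 and 0.70 for Adgre1. Median-ratio size factors kept the Cd68 call (0.83, limma adjusted p 0.02878, beside 1.09% of all genes called higher on that scale) and ended that of Adgre1 (0.51, limma adjusted p 0.08021), while Itgax stood at 0.12 (limma adjusted p 0.5139). Itgax moved with a single sample, to 0.42 (limma adjusted p 0.02714, under the fold change of 1.5) without Tnfr2-/- replicate 1 and to 0.08 without Tnfr2-/- replicate 2.

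Ratios between genes of the same sample were free of any scaling of the library. Ptprc, the leukocyte gene set under the markers, was itself called higher in both knockouts than in WT, by 1.30 in Tnfr2-/- and 1.29 in Tnfr1-/- on the log2 scale, which widens each fall of a ratio to it against WT, while between the knockouts it differed by 0.01. On the log2 scale, Cd68 relative to Ptprc was 2.80 and 2.74 in WT, -2.37 and -2.44 in Tnfr1-/-, and -1.63 and -1.23 in Tnfr2-/- samples. Adgre1 relative to Ptprc was -0.04 and 0.05 in WT, -4.23 and -4.34 in Tnfr1-/-, and -3.70 and -3.54 in Tnfr2-/-. For both, the genotypes did not overlap and Tnfr2-/- lay above Tnfr1-/-. The selection of the table's genes favours such a separation here too. Itgax relative to Ptprc was 1.16 and 1.04 in WT, -4.20 and -4.43 in Tnfr1-/-, and -4.33 and -3.79 in Tnfr2-/-, so that the knockouts overlapped.

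The markers also shifted relative to one another. There were 0.141 and 0.155 Adgre1 per Cd68 in WT (a ratio of FPKM values), 0.275 and 0.267 in Tnfr1-/- and 0.238 and 0.202 in Tnfr2-/- samples. Itgax per Cd68 was 0.321 and 0.308 in WT, 0.281 and 0.251 in Tnfr1-/-, and 0.154 and 0.170 in Tnfr2-/-. The log2 ratios of Itgax to Adgre1 were 1.19 and 0.99 in WT, 0.03 and -0.09 in Tnfr1-/-, and -0.63 and -0.25 in Tnfr2-/-. Tnfr2-/- MDSCs thus carried the least CD11c message for their F4/80 and CD68 message, and these ratios, with 2 samples per genotype, are a description without a test. Each of the 3 ratios separated the genotypes, which the selection of the listed genes favours. How many of all gene pairs did so was not counted.

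**Figure D3:**
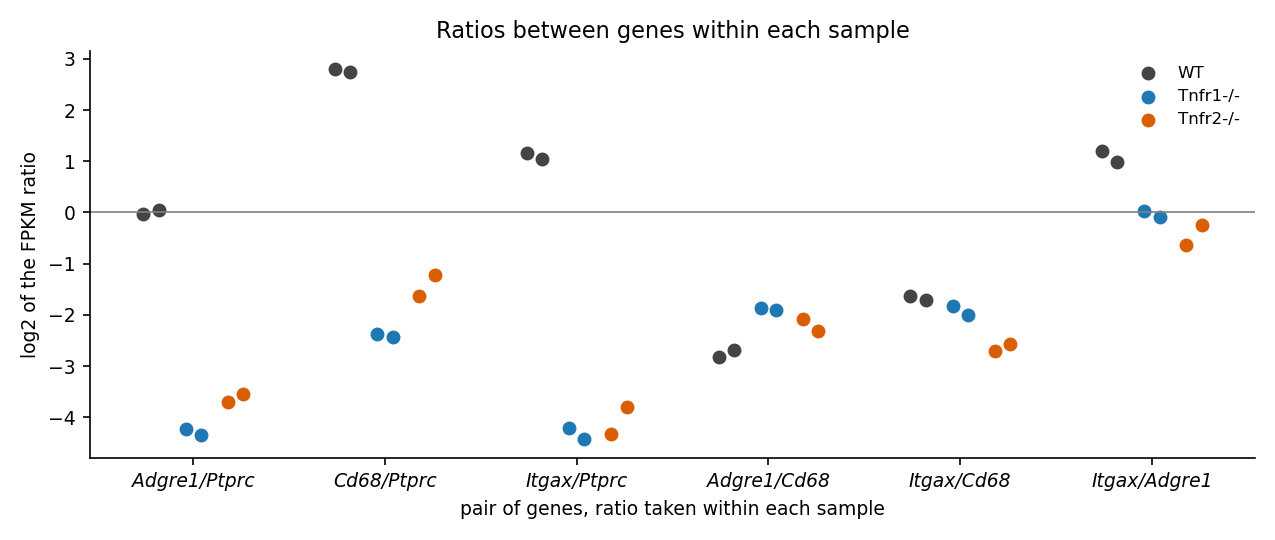
Log2 ratios of FPKM between pairs of genes within each sample, with 1 point per sample coloured by genotype; the grey line marks equal FPKM. Ratios to Ptprc are high in WT and low in both knockouts, and the knockouts separate for Adgre1 and Cd68 but overlap for Itgax.

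Most other listed genes characteristic of tissue macrophages fell alongside the members in the comparisons with WT. Of a list of 20 such genes without the members, 17 were in the table. In Tnfr2-/- compared with WT 15 of the 17 were called lower and 1 higher, beside 57.1% of all genes called lower, with a median of -3.70 compared with -0.74 over all genes. In Tnfr1-/- 16 of the 17 were called lower and 1 higher, beside 60.7% of all genes, with a median of -4.11 compared with -0.83. After median-ratio scaling the lower calls were 12 and 11, beside 21% and 22.1% of all genes, and the medians were -2.75 and -3.01. The summed level of the list was 27400 and 29500 FPKM in WT, 4530 and 3340 FPKM in Tnfr1-/- and 7300 and 6050 FPKM in Tnfr2-/-, most of it Lyz2, the lysozyme gene of macrophages and granulocytes. Lyz2 itself was not called in Tnfr2-/- compared with WT (limma adjusted p 0.05202). Its call in Tnfr1-/- (limma adjusted p 0.01632) ended after median-ratio scaling. Csf1r, also of this list, was lower by -0.59 in Tnfr2-/- and turned to 0.40 after that scaling. C1qa, a complement subunit made by tissue macrophages, was at 659 and 686 FPKM in WT, 35.6 and 40.5 FPKM in Tnfr1-/- and 36.2 and 29.5 FPKM in Tnfr2-/-, without a difference between the knockouts that passed the test. Siglec1, the sialoadhesin of marginal metallophilic macrophages, was at 46.8 and 52.5 FPKM in WT, 0.998 and 2.09 FPKM in Tnfr1-/- and 2.51 and 6.70 FPKM in Tnfr2-/-.

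Between the knockouts 0.842% of all genes were called higher and 0.61% lower, which holds for the later lists too. Only Trem2 of these 17 genes was called. This call, like those of Fscn1, Ccr7, Ccr2, F13a1, Itgb5, Cd55, Scarb1 and Cebpa given further on, was lost under 8 of 14 alternatives, among them a model of only the 2 genotypes, a replicate block and 5 of the 6 samples left out in turn. Trem2, a lipid-sensing receptor of macrophages, was at 87.9 and 92.1 FPKM in WT, 1.98 and 1.82 FPKM in Tnfr1-/- and 5.15 and 6.98 FPKM in Tnfr2-/-. It was higher in Tnfr2-/- than in Tnfr1-/- by 1.27 on the log2 scale (SE 0.14, limma adjusted p 0.03753). The median of the list in this comparison was 0.28, compared with 0.06 over all genes. Trem2 thus showed the order of Cd68 and Adgre1, whereas C1qa was about level in the knockouts. Trem2 was named for its call and large difference between the knockouts, so its order does not describe the list.

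Of 20 genes of dendritic cells, 16 were in the table, and with FPKM as deposited their share of lower calls was near that of all genes. In Tnfr2-/- compared with WT 10 of the 16 were called lower and 2 higher, with a median of -1.07, close to the 57.1% of all genes called lower. In Tnfr1-/- 10 of the 16 were lower and 2 higher, with a median of -1.82, again close to the share of all genes, 60.7%. After median-ratio scaling 6 and 8 of the 16 were called lower, a larger share than the 21% and 22.1% of all genes. The medians were then -0.31 and -0.77. The list summed to 6440 and 6790 FPKM in WT, 1340 and 1330 FPKM in Tnfr1-/- and 1040 and 1780 FPKM in Tnfr2-/-. Its most abundant members belong to antigen presentation and are made by B cells as well. Cd74, the invariant chain, was at 3390 and 3590 FPKM in WT, 838 and 858 FPKM in Tnfr1-/- and 660 and 1100 FPKM in Tnfr2-/-. H2-Ab1, an MHC class II chain, was at 1170 and 1260 FPKM in WT, 157 and 139 FPKM in Tnfr1-/- and 119 and 213 FPKM in Tnfr2-/-.

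The dendritic genes were mixed between the knockouts, where 1 was called higher and 1 lower, and the median of 0.08 turned to -0.04 after median-ratio scaling. Fscn1, the actin-bundling fascin of mature dendritic cells, was higher in Tnfr2-/- by 0.76 on the log2 scale (SE 0.10, limma adjusted p 0.03838), at 3.93 and 4.06 FPKM compared with 2.11 and 1.80 FPKM in Tnfr1-/-. Ccr7, the chemokine receptor that guides dendritic cells and lymphocytes to lymphoid tissue, was lower by -0.97 (SE 0.09, limma adjusted p 0.02993), at 7.04 and 7.78 FPKM compared with 15.0 and 16.0 FPKM. Batf3, a factor needed for cross-presenting dendritic cells, was at 7.31 and 11.2 FPKM compared with 4.15 and 2.63 FPKM and did not pass (1.22, SE 0.25, limma adjusted p 0.07456). Clec10a, a lectin of conventional dendritic cells, was at 5.63 and 7.54 FPKM compared with 3.15 and 1.89 FPKM and did not pass either (1.12, SE 0.22, limma adjusted p 0.06982).

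Listed neutrophil and B cell genes, of cells that the isolation could hold, ran opposite to the members between WT and the knockouts. Their part in the marker levels was not tested. In WT, 3 listed neutrophil genes of a list of 16 summed to 15.4 and 13.7 FPKM, compared with 3070 and 2730 FPKM in Tnfr1-/- and 2450 and 1520 FPKM in Tnfr2-/-. Retnlg, a granulocyte gene, was at 2.30 and 2.13 FPKM in WT and between 1050 and 2360 FPKM in the knockouts. The 6 listed of 10 B cell genes, all called higher in both knockouts against 13.6% and 14.1% of all genes, summed to 46.8 and 47.1 FPKM in WT, 403 and 335 FPKM in Tnfr1-/-, and 177 and 306 FPKM in Tnfr2-/-. No listed gene of these lists was at 0 in both samples of a genotype. Macrophage markers were thus high in the samples where these neutrophil and B cell genes were low. Eosinophil, basophil, mast cell and platelet genes, given under other observations, were instead lower in both knockouts, as the members were.

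Most listed monocyte genes were higher, not lower, in the knockouts than in WT. Of 12 such genes 8 were in the table. In Tnfr1-/- compared with WT 6 were called higher and 1 lower, beside 14.1% and 60.7% of all genes. In Tnfr2-/- compared with WT 7 were called higher, beside 13.6% of all genes, and Chil3, a lectin of monocytes and macrophages, was the 1 called lower, at 2880 and 3070 FPKM in WT and 375 and 116 FPKM in Tnfr2-/-. Between the knockouts 2 were called higher in Tnfr2-/-, beside 0.842% of all genes, with a median of 0.74 compared with 0.06 over all genes. Ccr2, the receptor by which classical monocytes leave the marrow, was at 15.0 and 14.9 FPKM in WT, 80.0 and 101 FPKM in Tnfr1-/-, and 199 and 229 FPKM in Tnfr2-/-, a rise of 1.24 on the log2 scale between the knockouts (SE 0.14, limma adjusted p 0.03753). F13a1, a transglutaminase gene of monocytes, rose by 0.89 (SE 0.09, limma adjusted p 0.0367). Cx3cr1, the fractalkine receptor, was at 25.7 and 45.9 FPKM in Tnfr2-/- and 8.63 and 9.88 FPKM in Tnfr1-/-, and did not pass (1.79, SE 0.28, limma adjusted p 0.05168). Ccr2, F13a1 and Cx3cr1 met the naming rule through their call or large difference between the knockouts, so their direction does not describe the list. Chil3 was at 353 and 252 FPKM in Tnfr1-/- and differed by -0.52 between the knockouts (SE 0.58, limma adjusted p 0.6445). The whole monocyte list summed to 717 and 663 FPKM in Tnfr1-/- and 1030 and 874 FPKM in Tnfr2-/-. Its part in the higher Cd68 and Adgre1 of Tnfr2-/- samples was not tested.

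**Figure D4:**
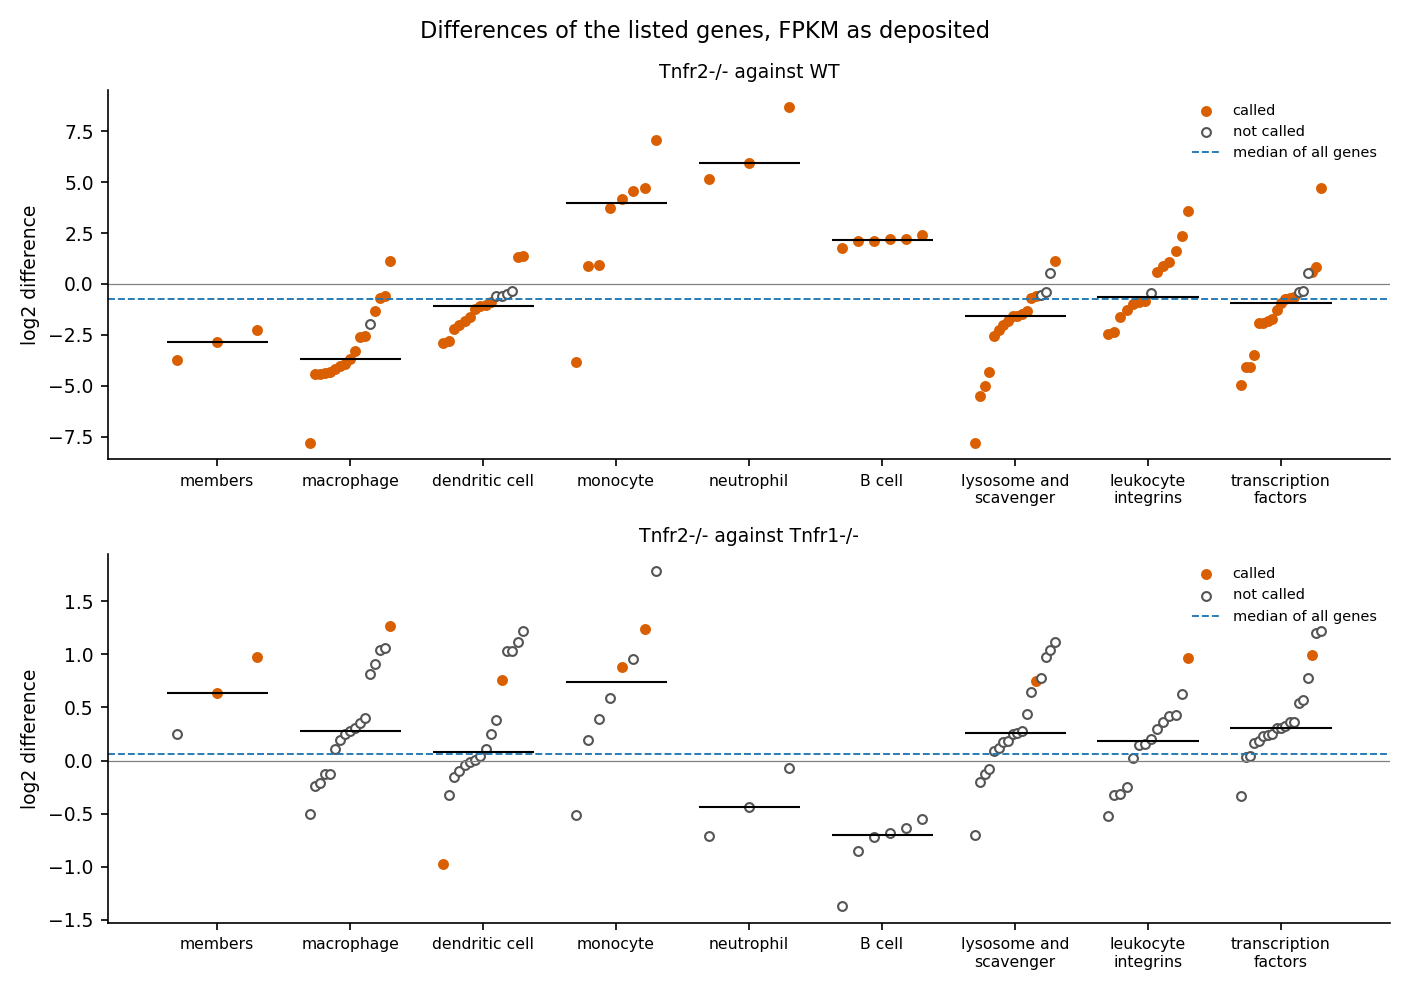
Log2 differences of every listed gene, with FPKM as deposited, for Tnfr2-/- against WT (upper panel) and Tnfr2-/- against Tnfr1-/- (lower panel), grouped by list. Filled points were called, open points were not, black lines mark list medians and the dashed line the median of all genes. Against WT, the medians of the macrophage list and the members lie below the dashed line. Those of the monocyte, neutrophil and B cell lists lie above it. Single genes lie on the other side, such as Csf1r of the macrophage list and Chil3 of the monocyte list. Few genes were called between the knockouts. After median-ratio scaling the upper-panel medians of the integrin and transcription factor lists turn from below to above 0.

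Around Itgax, 14 of 18 genes of leukocyte integrins and their partners were in the table. Itgb2, whose β2 chain CD11c needs to reach the cell surface, was at 616 and 632 FPKM in WT, 263 and 240 FPKM in Tnfr1-/- and 323 and 201 FPKM in Tnfr2-/-. Itgax relative to Itgb2 fell from log2 ratios of -1.49 and -1.55 in WT to -4.40 and -4.26 in Tnfr1-/- and -4.60 and -3.56 in Tnfr2-/-. The integrin list as a whole was mixed, with 6 of 14 genes called higher and 7 lower in Tnfr2-/- compared with WT, beside 13.6% and 57.1% of all genes, and its median of -0.64 turned to 0.29 after median-ratio scaling. Between the knockouts 1 was called, Itgb5, the β5 subunit, at 5.90 and 6.50 FPKM in Tnfr1-/- and 11.9 and 14.3 FPKM in Tnfr2-/- (a rise of 0.96 on the log2 scale, SE 0.12, limma adjusted p 0.0383). Icam1, a ligand of β2 integrins, was at 87.8 and 92.1 FPKM in WT, 15.3 and 21.5 FPKM in Tnfr1-/- and 19.9 and 40.7 FPKM in Tnfr2-/-. Rap1b, a small GTPase that activates integrins, was at 194 and 201 FPKM in WT and between 268 and 400 FPKM in the knockouts.

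Around Adgre1, 6 of 10 genes of its receptor family and their ligands were in the table, and the closest relatives ran against it. Adgre5, which encodes CD97, was at 15.1 and 13.9 FPKM in WT, 164 and 229 FPKM in Tnfr1-/- and 224 and 237 FPKM in Tnfr2-/-. Adgre4, another member of the EGF-containing group, was at 0.741 and 0.927 FPKM in WT, 19.4 and 23.7 FPKM in Tnfr1-/- and 35.1 and 60.3 FPKM in Tnfr2-/-. Both were called higher in each knockout compared with WT, with log2 differences between 3.61 and 4.68. Cd55, the complement regulator that CD97 binds, was also higher than WT in both knockouts and was lower in Tnfr2-/- than in Tnfr1-/- by -1.20 on the log2 scale (SE 0.16, limma adjusted p 0.04072). In all, 4 of the 6 were called higher and 1 lower in each knockout compared with WT, beside 13.6% and 14.1% of all genes called higher.

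Around Cd68, 18 of 19 lysosomal membrane proteins and scavenger receptors were in the table. In Tnfr2-/- compared with WT 14 of the 18 were called lower and 1 higher, beside 57.1% of all genes called lower, with a median of -1.59 compared with -0.74 over all genes. In Tnfr1-/- 16 of the 18 were lower and 2 higher, beside 60.7% of all genes, with a median of -1.97 compared with -0.83. After median-ratio scaling 9 and 11 were called lower, beside 21% and 22.1% of all genes, with medians of -0.61 and -1.06. Lamp1, a major glycoprotein of the lysosomal membrane, was at 663 and 696 FPKM in WT, 125 and 138 FPKM in Tnfr1-/- and 204 and 249 FPKM in Tnfr2-/-. Cd63, a tetraspanin of late endosomes, was at 591 and 555 FPKM in WT, 37.1 and 22.5 FPKM in Tnfr1-/- and 41.8 and 17.7 FPKM in Tnfr2-/-. Lamp1 thus stood in the order of Cd68 across the genotypes, and Cd63 overlapped between the knockouts.

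Between the knockouts Scarb1, a receptor for high-density lipoprotein, was the 1 gene called of these 18, higher in Tnfr2-/- by 0.75 on the log2 scale (SE 0.10, limma adjusted p 0.04072). Lamp1 was at a difference of 0.78 (SE 0.14, limma adjusted p 0.06232) and did not pass. Msr1, the class A scavenger receptor, was at 3.26 and 4.55 FPKM in Tnfr1-/- and 8.14 and 10 FPKM in Tnfr2-/- (1.05, SE 0.16, limma adjusted p 0.05065). Colec12, a scavenger receptor with a lectin domain, was at 8.26 and 12.4 FPKM in Tnfr1-/- and 20.9 and 25.6 FPKM in Tnfr2-/- (1.11, SE 0.20, limma adjusted p 0.06232). The Tnfr2-/- samples were the higher ones for each of these 4 genes, with 1 called. Scarb1, Msr1 and Colec12 were named for their call or large difference between the knockouts, so their direction does not describe the list. Cd63, of the same list, differed by -0.08 (SE 0.45).

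Of 28 transcription factors of macrophages and dendritic cells, 19 were in the table. Cebpa, a factor of myeloid commitment, stood in the order of Cd68, at 110 and 115 FPKM in WT, 15.3 and 17.5 FPKM in Tnfr1-/- and 34.0 and 33.1 FPKM in Tnfr2-/-. It was the 1 factor called between the knockouts, higher in Tnfr2-/- by 0.99 on the log2 scale (SE 0.09, limma adjusted p 0.02769). Cebpa was named for that call, so its order does not describe the list. The list's median against WT was -0.91 in Tnfr2-/- and -1.65 in Tnfr1-/-, compared with -0.74 and -0.83 over all genes, and median-ratio scaling turned the first to 0.07 and left the second at -0.59. Klf2, a factor of quiescent leukocytes, ran the other way, at 12.2 and 10.01 FPKM in WT and between 226 and 363 FPKM in the knockouts.

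The genes whose profiles over the 6 samples lay nearest to each member were found by the root mean square difference of log2(FPKM + 1), centred on each gene's own mean, among 6728 genes with a mean of at least 1 FPKM. For Adgre1 they were Dcxr, a carbonyl reductase (0.05), Acvrl1, a receptor of the TGF-β family (0.06), and Rxra, a nuclear receptor (0.07). For Cd68 they were Cd302, a C-type lectin receptor (0.07), Sulf2, a heparan sulfatase (0.10), and Ptms, parathymosin (0.14). For Itgax they were Slc6a8, the creatine transporter (0.07), Qdpr, which recycles tetrahydrobiopterin (0.09), and Trim47, a RING-domain protein (0.10). Slc6a8 and Trim47 were under 1 FPKM in every knockout sample, where the 1 FPKM added before log2 makes up most of the value, and they passed the minimum through WT, so their nearness holds on this scale and not for the raw levels. These distances are descriptions over 6 samples that share 1 large step between WT and the knockouts.

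The members were not each other's nearest genes. The distance between Cd68 and Itgax was 0.39, which placed Itgax 125th from Cd68 and Cd68 181st from Itgax. The distance between Adgre1 and Cd68 was 0.40, and that between Adgre1 and Itgax, the widest of the 3, was 0.65. Rxra, close to Adgre1, was at 52.4 and 54.7 FPKM in WT, 5.81 and 7.46 FPKM in Tnfr1-/- and 10.4 and 10.1 FPKM in Tnfr2-/-. Cd302, close to Cd68, was at 133 and 136 FPKM in WT, 8.59 and 10.2 FPKM in Tnfr1-/- and 15.6 and 19.5 FPKM in Tnfr2-/-. Qdpr, close to Itgax, was at 107 and 103 FPKM in WT, 6.56 and 6.19 FPKM in Tnfr1-/- and 6.23 and 7.44 FPKM in Tnfr2-/-, so that it too overlapped between the knockouts.

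**Figure D5:**
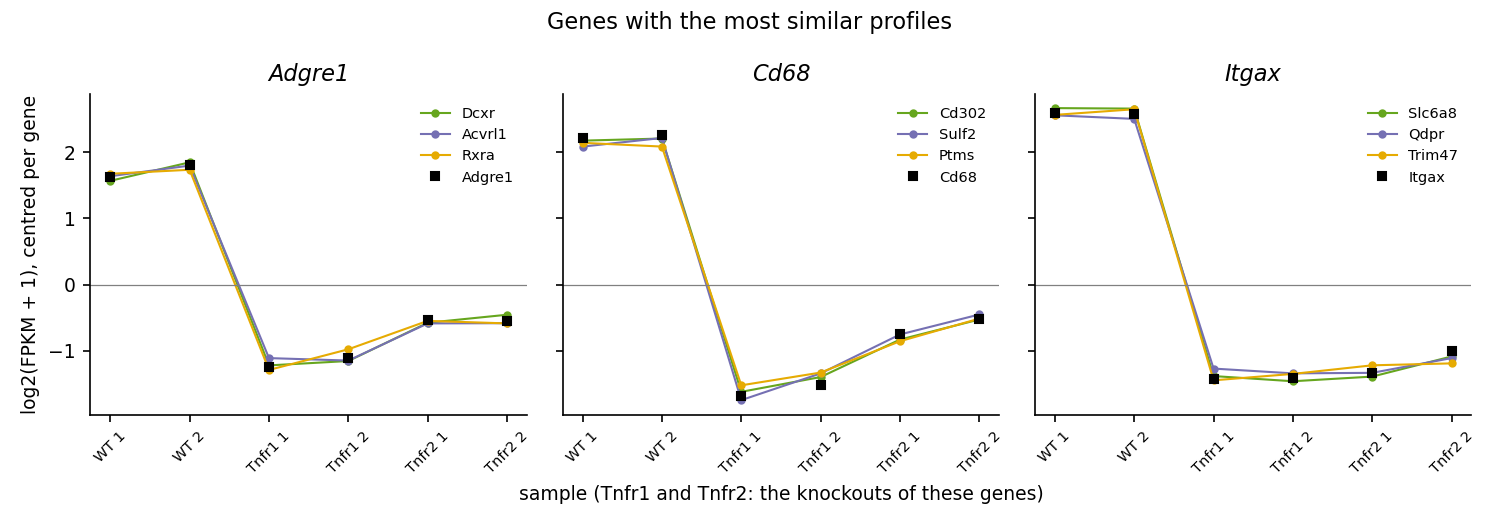
Profiles of log2(FPKM + 1), centred on each gene's mean, over the 6 samples for each member (black squares) and the 3 genes nearest to it (coloured lines, which join samples for legibility and stand for no order). The lines lie on the squares within about 0.2, and the step from Tnfr1-/- to Tnfr2-/- is visible for Adgre1 and Cd68 and slight for Itgax.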

How the data were processed

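RNA of splenic MDSCs was made into libraries with a SMARTER mRNA-seq kit and sequenced as single-end reads of 50 bases. The authors deposited FPKM values for 8191 genes in 6 samples, with 1 further column of analysis of variance p-values, which was not used. Per the labels the build was mm10, with FastQC and edgeR named as tools. The aligner and the tool that made the FPKM values are not given in the sources used here. Values were used as deposited, 1 FPKM was added before log2, and no filter was applied. All 6 samples entered 1 model (limma's lmFit, contrasts.fit and trended eBayes, version 3.58.1, R 4.3.3), with two-sided tests and Benjamini-Hochberg adjustment over 8191 genes. Exact tests were not used, since the smallest two-sided p they allow with 2 samples in each group is 0.333. The model was tested on simulated data. Other steps used Python 3.11.15, NumPy 2.4.6, SciPy 1.17.1, pandas 2.3.3 and matplotlib 3.10.9.

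The members and the gene lists were chosen with earlier results of these data known. Cd68 is also in a heat map that the study drew from these samples. Genes named are the members, those of the gate, the targeted genes, for each list the 2 highest in mean FPKM, the 2 most different between the knockouts and all called there, and the 3 nearest to each member in profile. Itgad was named for the sequence it shares with Itgax. A gene that this rule names is not reported here. Alternatives were a pseudocount of 0.1, minimum means of 1 and 5 FPKM, a model of only the 2 genotypes compared, a replicate block, untrended eBayes, quantile normalization, median-ratio scaling and each sample left out in turn.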

Additional observations from a re-analysis of the deposited data

How the results depend on the processing

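The lower levels of Adgre1, Cd68 and Itgax in each knockout compared with WT kept their direction and call under all 14 alternatives, with log2 differences from -1.29 to -2.35 for Adgre1, from -1.79 to -2.98 for Cd68 and from -2.79 to -3.93 for Itgax in Tnfr2-/- and from -1.80 to -2.99, from -2.62 to -3.93 and from -2.90 to -4.11 in Tnfr1-/-. For Tnfr2-/- against Tnfr1-/-, Adgre1 was no longer called under 10 and Cd68 under 8 of 14. Adgre1 was at 0.64 with only these 2 genotypes in the model (limma adjusted p 0.1604) and without trend (0.06031), at 0.51 after median-ratio scaling (0.08021) and after quantile normalization (0.0581), and between 0.58 and 0.70 with a sample left out. Cd68 was at 0.97 with only 2 genotypes (0.1604) and without trend (0.05139), and between 0.86 and 1.08 with a sample left out. The adjusted p ranged from 0.03345 to 0.1604 for Adgre1 and from 0.02013 to 0.1604 for Cd68. Itgax was not called under any of them.

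Samples of different genotypes share only a replicate number (correlations of deviations 0.022, 0.03 and 0.046). With that number as a replicate block, Adgre1 stayed at 0.64 (limma adjusted p 0.07809) and Cd68 at 0.97 (0.06144), and 7 genes were called between the knockouts.

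Of all genes, 5794 were called in Tnfr2-/- against WT, and 3823 with a mean of at least 5 FPKM, 3504 after median-ratio scaling and 3535 after quantile normalization. For Tnfr1-/- against WT 6124 were called, and 4059, 3722 and 3796 under these alternatives. For Tnfr2-/- against Tnfr1-/- 119 were called, and 217 with a mean of at least 1 FPKM, 0 by limma with only 2 genotypes (1436 at an unadjusted p under 0.05), 15 without trend, 208 after median-ratio scaling, 238 after quantile normalization, and from 2 to 662 with a sample left out, the 662 without Tnfr2-/- replicate 1. The cause was not tested. Median-ratio scaling changed the split of calls against WT from 1115 higher and 4679 lower to 1787 and 1717 in Tnfr2-/-, and from 1151 and 4973 to 1908 and 1814 in Tnfr1-/-. Of 196 list counts per comparison, 11, 8 and 117 moved by over 1.5 times or changed to or from 0 genes called. Read depth was unknown, and limits each value by an amount that cannot be given here.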

Other observations

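Receptors and ligands of myeloid growth factors, which guide the making of macrophages and dendritic cells, were described apart from the members. Of 10 such genes 8 were in the table, and none was called between the knockouts. Csf1r, the receptor macrophages depend on, was at 225 and 237 FPKM in WT, 71.3 and 92.6 FPKM in Tnfr1-/- and 137 and 171 FPKM in Tnfr2-/-. Its difference between the knockouts was 0.91 on the log2 scale (SE 0.17, limma adjusted p 0.06964). Against WT it was lower by -0.59 in Tnfr2-/-, which turned to 0.40 after median-ratio scaling, and by -1.496 in Tnfr1-/-, which became -0.36. Csf3r, the receptor of granulocytes for G-CSF, was at 9.99 and 8.07 FPKM in WT and between 286 and 454 FPKM in the knockouts. Flt3l, the ligand that supports dendritic cell development, was at 2.79 and 2.04 FPKM in WT, 7.20 and 7.68 FPKM in Tnfr1-/- and 4.14 and 5.09 FPKM in Tnfr2-/-.

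Listed eosinophil, basophil, mast cell and platelet genes were lower in both knockouts than in WT. The 7 listed of 11 were all called lower in both knockouts compared with WT, beside 57.1% of all genes in Tnfr2-/- and 60.7% in Tnfr1-/-, and 6 and 4 of them after median-ratio scaling. They summed to 177 and 193 FPKM in WT, 27.1 and 18.6 FPKM in Tnfr1-/- and 9.5 and 8.43 FPKM in Tnfr2-/-. Pf4, a chemokine gene of platelets and of some macrophages, made up most of it in WT, at 104 and 118 FPKM in WT and between 3.12 and 4.30 FPKM in the knockouts. Of 16 T and NK cell genes 4 were in the table, and they summed to 36.1 and 40.7 FPKM in WT, 43.3 and 50.7 FPKM in Tnfr1-/- and 25.2 and 22.8 FPKM in Tnfr2-/-. Of 9 erythroid genes 2 were in the table. Slc4a1, the anion exchanger of red cells, was listed at 0 in both WT samples, at 2.30 and 1.95 FPKM in Tnfr1-/- and at 0.815 and 0.409 FPKM in Tnfr2-/-, and Epor, the erythropoietin receptor, was at 7.89 and 8.96 FPKM in WT and between 0.183 and 0.614 FPKM in the knockouts.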
